A study of Drosophila melanogaster with 25 samples.

Results

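The small heat shock protein genes of Drosophila melanogaster were followed through RNA-seq libraries of animals that expressed a part of the Fat protein or carried null alleles of fat. The gene fat (ft) encodes a giant atypical cadherin that restrains growth through the Hippo pathway and orients cells in the plane of an epithelium. The set held 7 genes, Hsp22, Hsp23, Hsp26, Hsp27, Hsp67Ba, Hsp67Bc and l(2)efl, taken by gene symbol from both deposited count tables, and all 7 were found among the 17208 genes of each table. Animals labelled Ubi>FtICD came from a stock carrying ubi-Gal4, a driver named for a ubiquitous promoter, with UAS-FtICD-3xFLAG, a FLAG-tagged intracellular domain of Fat. This group, called FtICD here, held 4 libraries of embryos aged 16 to 20 h, 3 of imaginal wing discs and 3 of eye-brain complexes, the discs and complexes being from larvae of the third instar. Their wild type was the w1118 strain, with 4 embryo, 3 wing disc and 2 eye-brain libraries in the same table. A second table held 3 eye-brain libraries labelled Fd5-5, which the growth protocol gives as the ft null combination fd5-5/X13 in trans, and 3 eye-brain libraries of w1118. All animals were kept at 25 °C, and no group of driver alone or transgene alone was analysed here, so the FtICD and w1118 animals differ in the driver and the insertions as well as in FtICD. The ft null animals were likewise compared with w1118, so loss of ft and any other difference of background cannot be told apart. The labels do not say whether libraries of a group came from separate collections, so the p-values measure the spread between these libraries, which may be technical.

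Small heat shock proteins share an alpha-crystallin domain, assemble into oligomers and hold unfolding proteins in a soluble state without using ATP, from which HSP70 chaperones and their partners can refold them. In flies their genes are switched on by heat and other proteotoxic stress through heat shock factor (Hsf). Several of them, among them Hsp23, Hsp26 and Hsp27, are also switched on without stress during normal development, when the steroid hormone ecdysone rises at the end of larval life. Hsp22 is a mitochondrial matrix protein linked to ageing and oxidative stress, Hsp23 and Hsp26 are found in the cytosol, and Hsp27 is found mainly in the nucleus. Hsp67Bc acts with the BAG-family co-chaperone starvin (stv) in clearing misfolded protein by autophagy, and l(2)efl, whose name stands for lethal (2) essential for life, is a crystallin-type family member expressed in muscle.

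On the dm6 assembly, 6 of the 7 genes lay within 14184 bases of chromosome arm 3L, between positions 9371511 and 9385694. In order along the arm these were Hsp67Bc (9371511 to 9372497, minus strand), Hsp22 (9372931 to 9374964, plus strand), Hsp26 (9376418 to 9377427, minus strand), Hsp67Ba (9377802 to 9379534, minus strand), Hsp23 (9381882 to 9382765, plus strand) and Hsp27 (9384063 to 9385694, plus strand). The remaining gene, l(2)efl, lay apart on arm 2R, at 23684651 to 23685543 on the minus strand. Hsp67Bc, Hsp26, Hsp67Ba, Hsp23 and Hsp27 each had 1 exon block, while Hsp22 and l(2)efl each had 3. All 1900 annotated exon bases of Hsp22 are shared with CG4456 on the same strand, and 1316 exon bases of Hsp67Ba are covered by an antisense RNA, asRNA:CR43481. The cDNA kit named in the labels does not mark strand, so reads of these overlapping genes were divided by estimation, and the values of Hsp22 and Hsp67Ba are uncertain to that extent. Only 1 of 25 values of Hsp22 and 0 of 25 values of Hsp67Ba were whole numbers, taken as within 1e-06 of one, against 21 of 25 for Hsp26 and 22 of 25 for Hsp67Bc.

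The 25 libraries held 15016561 to 54256669 estimated counts. The ft gene averaged 1253 CPM (counts per 1000000 on the normalised scale) in FtICD embryos against 27.4 in wild type, 8302 against 311 in wing discs and 4344 against 133 in eye-brain complexes. These gene counts do not part transgene reads from those of the resident ft gene, and they do not measure Fat activity. The ft gene averaged 171 CPM in ft null complexes against 117 in their wild type, so the transcript level does not check the null label. Ribosomal RNA took 13.9% ± 1.84 of the counts in FtICD embryos and 4.78% ± 0.838 in wild-type embryos (SD, n = 4 each). Among the eye-brain libraries, FtICD replicate 3 stood apart, with summed salivary gland markers reaching 10771 CPM against 33 to 37.5 in wild type.

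Before the genotypes are compared, the wild-type levels show how differently these genes were expressed in embryos, wing discs and eye-brain complexes. Per kilobase of exon, Hsp67Bc was highest in embryos at 110.3 ± 3.39 CPM, followed by l(2)efl at 56.0 ± 17.2 (SD, n = 4). Hsp26, Hsp27 and Hsp23 followed at 12.5 ± 5.76, 10.5 ± 2.43 and 7.26 ± 2.54 CPM per kilobase. Hsp26 and Hsp27 lay within their spread, and the gap between Hsp27 and Hsp23 was slightly larger than either SD. Hsp22 at 2.87 ± 1.68 and Hsp67Ba at 0.479 ± 0.0565 CPM per kilobase closed the order. In wing discs the order differed, with Hsp27 at 2902 ± 368, Hsp23 at 747 ± 38.8, Hsp26 at 521 ± 178 and Hsp67Ba at 159 ± 16.2 CPM per kilobase (n = 3). Hsp22 (6.93 ± 3.69) and l(2)efl (5.30 ± 1.56) lay within each other's spread, and Hsp67Bc was last at 1.19 ± 0.436 CPM per kilobase. In eye-brain complexes Hsp27 again led at 1593 ± 299 CPM per kilobase, with Hsp23 at 458 ± 30.5, Hsp26 at 226 ± 79.0, Hsp67Ba at 190 ± 20.5 and Hsp67Bc at 147 ± 44.0 (n = 2). Hsp26, Hsp67Ba and Hsp67Bc were neighbours within their spread there, and Hsp22 at 11.4 ± 3.08 and l(2)efl at 4.90 ± 0.832 were lowest. The per-kilobase level of Hsp22 depends on how reads were divided with CG4456 and on an exon length that includes a shared transcript.

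**Figure D1:**
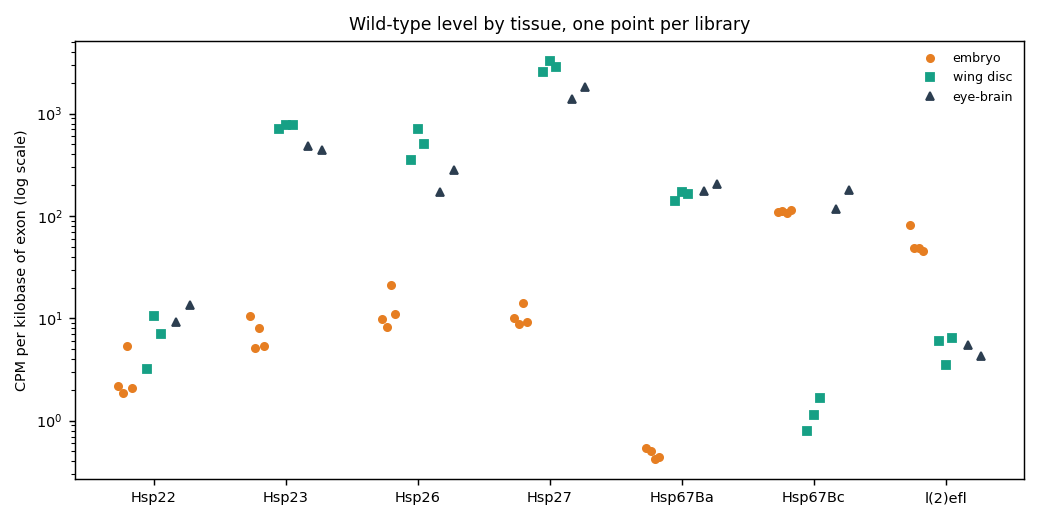
Level of the 7 genes in wild-type libraries of the FtICD table, in CPM per kilobase of exon on a log axis, with one point per library for 4 embryo, 3 wing disc and 2 eye-brain libraries. Hsp67Ba averaged 0.479 in embryos and 159 in wing discs, while Hsp67Bc averaged 110.3 in embryos, 1.19 in wing discs and 147 in eye-brain complexes.

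The wing disc exceeded the embryo by 8.07 ± 0.14 on the log2 scale for Hsp67Ba, 7.81 ± 0.22 for Hsp27, 6.38 ± 0.24 for Hsp23 and 5.08 ± 0.37 for Hsp26 (± SE; adjusted p between 3.5e-11 and 2.8e-07, edgeR quasi-likelihood test over 9 wild-type libraries with Benjamini-Hochberg adjustment). It lay below the embryo by a log2 difference of -6.78 ± 0.25 for Hsp67Bc and -3.69 ± 0.28 for l(2)efl. So 4 of the 7 genes were called higher and 2 lower, on a background in which 87.6% of the 12187 genes tested were called, 36.7% higher and 50.8% lower. Hsp22 differed by 0.98 ± 0.45 (adjusted p = 0.062) and passed the threshold of 0.05 without wild-type embryo replicate 3, at 1.46 (adjusted p = 0.0066), without wild-type wing replicate 1, at 1.33 (adjusted p = 0.0095), or without either eye-brain library. With the counts of CG4456 added, the difference of Hsp22 was 0.10 between wing disc and embryo and 0.97 between eye-brain and embryo (adjusted p = 0.79 and 0.04), so these sizes depend on how the shared reads were divided.

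The eye-brain complex exceeded the embryo for 5 of 7 genes, with 82.2% of all genes called and 39.3% called higher. The log2 differences were 8.41 ± 0.14 for Hsp67Ba, 7.03 ± 0.22 for Hsp27, 5.77 ± 0.24 for Hsp23, 3.97 ± 0.38 for Hsp26 and 1.79 ± 0.49 for Hsp22. l(2)efl was called lower, at -3.73 ± 0.34, where 42.9% of all genes were, and Hsp67Bc was not called, at 0.20 ± 0.19 (adjusted p = 0.34). Between the larval tissues, Hsp67Bc averaged 145 CPM in eye-brain complexes and 1.18 CPM in wing discs, a log2 difference of 6.98 ± 0.26 (adjusted p = 6.5e-09). Hsp67Ba was also called higher in the eye-brain (0.34 ± 0.11, adjusted p = 0.03), in a comparison that called 50.1% of all genes and 29.2% higher, but not without eye-brain replicate 1 or 2 or wing replicate 1, when its log2 difference lay between 0.11 and 0.30. Hsp27 (-0.78 ± 0.21) and Hsp26 (-1.12 ± 0.40) were called lower, among 20.9% of all genes, and the Hsp26 call was lost in 5 of 9 fits with 1 library left out (adjusted p up to 0.15). Hsp23 had -0.62 ± 0.24 (adjusted p = 0.052), Hsp22 0.81 ± 0.52 and l(2)efl -0.04 ± 0.32. With DESeq2's size factors Hsp23 was called lower (-0.70, adjusted p = 0.029) and Hsp67Ba was not called (0.25, adjusted p = 0.092). The median gene differed by -0.48 between wing disc and embryo and by -0.07 between eye-brain and embryo on the log2 scale, and another scaling moved these medians to -0.61 and -0.28. Embryo libraries were read on another sequencer than the larval libraries of this table, which came from dissected tissues. In comparisons with the embryo, stage, tissue and sequencer therefore cannot be told apart.

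**Figure D2:**
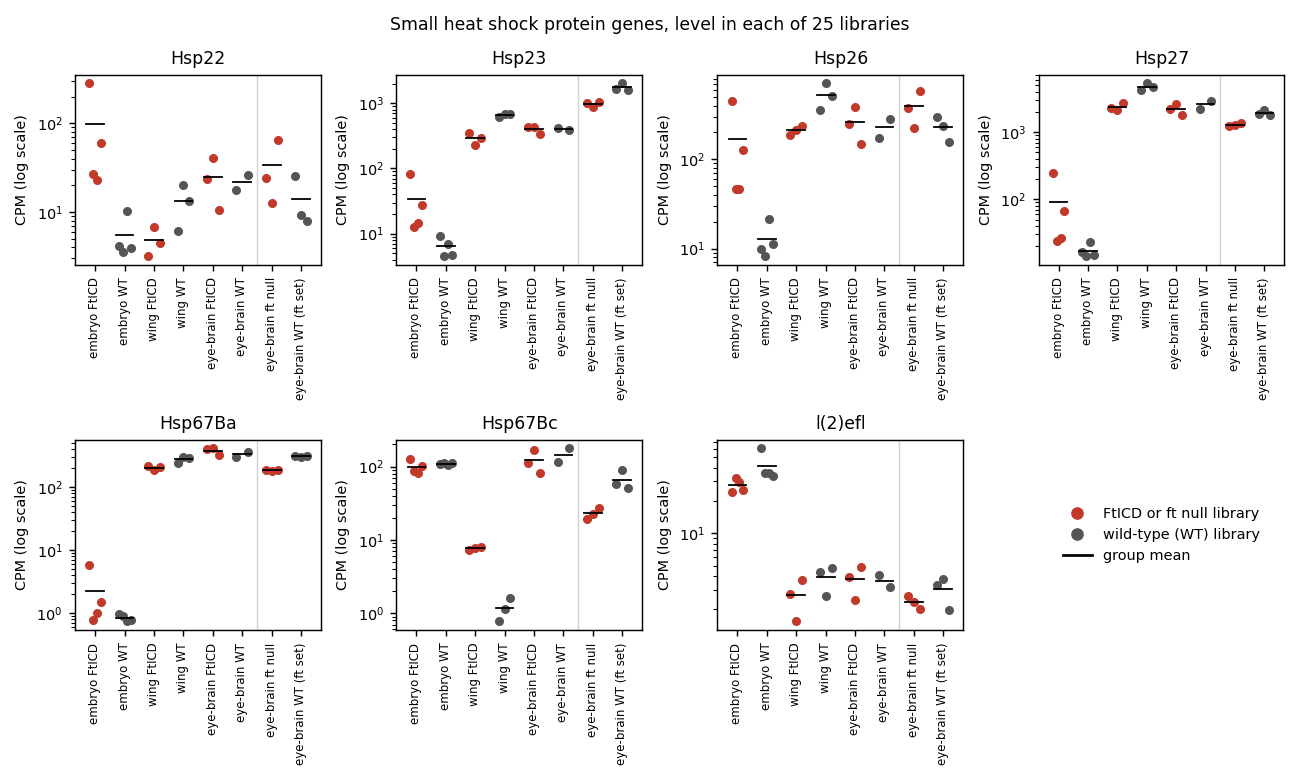
Level of each gene in each of 25 libraries, in CPM on a log axis, with FtICD or ft null libraries in red, wild-type libraries in grey and a bar at each group mean. The vertical line parts the FtICD table from the ft null table. For Hsp22, Hsp23, Hsp26 and Hsp27 every FtICD embryo library lies above every wild-type embryo library. For Hsp67Bc every FtICD wing library lies above every wild-type wing library. How common such gaps are among all genes was not counted.

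In FtICD embryos, the cluster genes Hsp22, Hsp26, Hsp23 and Hsp27 rose, and l(2)efl fell. Fitted fold changes ran from 5.5-fold for Hsp27 to 18.9-fold for Hsp22. Hsp67Ba had a log2 fold change of 1.49 and Hsp67Bc one of -0.10, and neither passed the test. Thus 4 of 7 genes were called higher and 1 lower in a comparison where 52.5% of the 11422 genes tested were called, 26.7% higher and 25.8% lower, so single calls were common, while the median log2 fold change was 2.46 over the 7 genes and 0.00 over all genes tested. In bulk tissue, a change in the share of expressing cells and a change of RNA per cell cannot be told apart. How many of all genes had no overlap between the genotypes was not counted in any comparison, so such gaps only describe the 7 genes.

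Hsp22, the mitochondrial member, had 284, 26.6, 23.2 and 59.7 CPM in FtICD embryo replicates 1 to 4 and 4.13, 3.51, 10.2 and 3.93 CPM in wild-type embryo replicates 1 to 4. Every FtICD library lay above every wild-type library, and FtICD replicate 1 lay far above the other 3. Its log2 fold change was 4.24 ± 0.84 (SE, n = 4 each; edgeR adjusted p = 0.0016). CG4456, the gene that shares its exons, rose by 1.84 ± 0.20 (adjusted p = 3.8e-05), and with the counts of both genes summed the log2 fold change was 3.57 ± 0.67 (adjusted p = 0.0011).

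Hsp26, a cytosolic member, had 455, 46.1, 46.4 and 128 CPM in FtICD embryos and 9.88, 8.26, 21.2 and 11.2 CPM in wild-type embryos. The groups did not overlap, and the same FtICD library was highest. The log2 fold change was 3.80 ± 0.74 (edgeR adjusted p = 0.0015). Hsp23, also cytosolic, had 82.6, 12.7, 14.4 and 27.8 CPM in FtICD embryos and 9.33, 4.55, 7.04 and 4.76 CPM in wild-type embryos. The lowest FtICD value was above the highest wild-type value, and the log2 fold change was 2.48 ± 0.57 (edgeR adjusted p = 0.0041).

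Hsp27, the nuclear member, had 247, 24.1, 26.2 and 66.5 CPM in FtICD embryos and 16.5, 14.3, 23 and 15.0 CPM in wild-type embryos. The groups were apart, but FtICD replicates 2 and 3 lay just above the highest wild-type library. The log2 fold change was 2.46 ± 0.67 (edgeR adjusted p = 0.01). Hsp67Ba, which lies between Hsp26 and Hsp23 on the arm, stayed near the bottom of detection, with 5.79, 0.759, 0.976 and 1.48 CPM in FtICD embryos and 0.944, 0.878, 0.734 and 0.765 CPM in wild-type embryos. Here FtICD replicate 2 lay within the wild-type range, and the log2 fold change was 1.49 ± 0.60 (edgeR adjusted p = 0.057). That gene passed the threshold in DESeq2 (adjusted p = 0.018), with its antisense partner's counts added (1.58, adjusted p = 0.04), and without FtICD replicate 2 or 3 (1.78 and 1.74, adjusted p = 0.025 and 0.035). Without FtICD replicate 1 its log2 fold change was 0.39.

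Hsp67Bc, the cluster gene at the other end, had 127, 86.6, 82.8 and 100.3 CPM in FtICD embryos and 107, 111, 105 and 112 CPM in wild-type embryos. FtICD replicate 1 was above the wild-type range and the other 3 below it, with a log2 fold change of -0.10 ± 0.13 (edgeR adjusted p = 0.55). Without FtICD replicate 1 Hsp67Bc was called lower, at -0.26 (adjusted p = 0.022). The unlinked gene l(2)efl had 24.0, 32.6, 29.7 and 25.1 CPM in FtICD embryos and 60.6, 36.1, 35.8 and 33.5 CPM in wild-type embryos. All FtICD libraries lay below all wild-type libraries, and wild-type replicate 1 was the highest by far. The log2 fold change was -0.54 ± 0.18 (edgeR adjusted p = 0.028), which became -0.30 without wild-type replicate 1 and lost its call without FtICD replicate 1 (-0.49, adjusted p = 0.052) or FtICD replicate 4 (-0.50, adjusted p = 0.063). It also lost its call when all 19 libraries of the table entered the fit (adjusted p = 0.1). Summed muscle markers moved the same way, at 34679 to 39797 CPM in FtICD embryos and 46180 to 53325 CPM in wild-type embryos, with 3 of 11 tested called higher and 4 lower, and their part in the l(2)efl value was not tested.

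**Figure D3:**
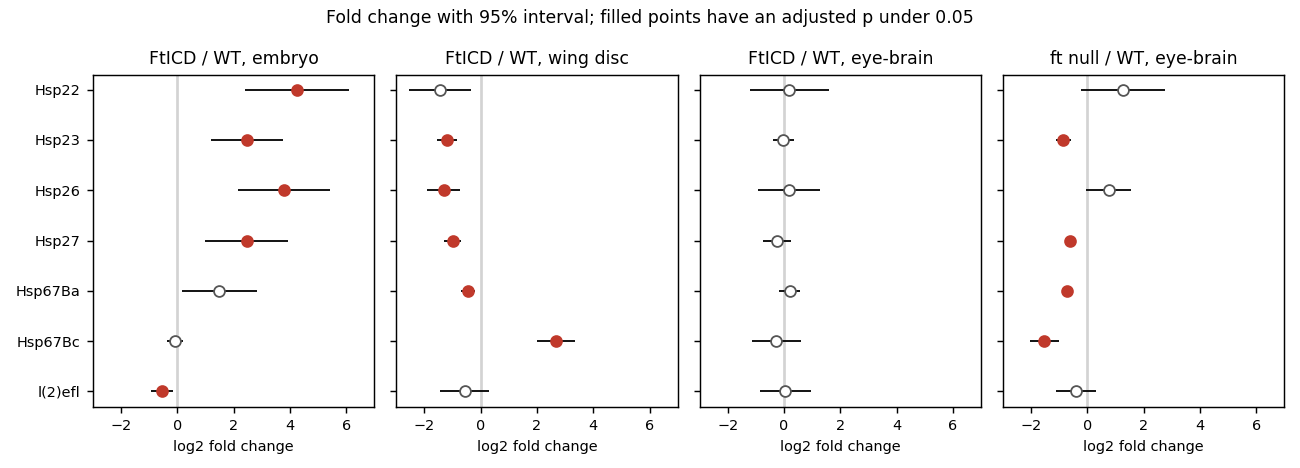
Log2 fold change of each gene in the 4 comparisons, mutant or FtICD over wild type, with 95% intervals from the edgeR quasi-likelihood fit. Filled points have an adjusted p under 0.05. The cluster genes from Hsp22 to Hsp27 lie to the right of 0 in embryos, and in wing discs Hsp67Bc lies at 2.68 while the other 6 genes lie to the left of 0.

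Taken library by library, the embryo response was uneven. FtICD replicate 1 exceeded the mean of FtICD replicates 2 to 4 by 7.79-fold for Hsp22, 6.34-fold for Hsp27, 6.20-fold for Hsp26, 5.41-fold for Hsp67Ba and 4.51-fold for Hsp23. The same ratio was 1.41 for Hsp67Bc and 0.822 for l(2)efl, so neither gene showed an excess of that size. Among 8727 genes that averaged at least 5 CPM, 24 reached a ratio of 4, which is 0.275%, and 4 of those 24 were Hsp22, Hsp23, Hsp26 and Hsp27, while Hsp67Ba lay below that mean. FtICD replicate 4 was next, at 2.77 times the mean of replicates 2 and 3 for Hsp26, 2.64 for Hsp27, 2.40 for Hsp22 and 2.04 for Hsp23. Among wild-type libraries, replicate 3 stood above the mean of the other 3 by 2.65-fold for Hsp22, 2.16-fold for Hsp26 and 1.51-fold for Hsp27.

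On average the remaining FtICD libraries still exceeded wild type, though not evenly. For Hsp27, replicates 2 and 3 were only 1.05 and 1.14 times the highest wild-type library. For Hsp67Ba, replicate 2 was 0.914 times the wild-type mean. The mean of FtICD replicates 2 to 4 was 6.70 times the wild-type mean for Hsp22, 5.82 times for Hsp26, 2.85 times for Hsp23, 2.26 times for Hsp27 and 1.29 times for Hsp67Ba. With FtICD replicate 1 left out, the log2 fold changes were 2.78 for Hsp22, 2.57 for Hsp26, 1.53 for Hsp23 and 1.20 for Hsp27, and all 4 passed the edgeR test in this fit and in the other 7 fits with 1 embryo library left out (adjusted p up to 0.032).

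**Figure D4:**
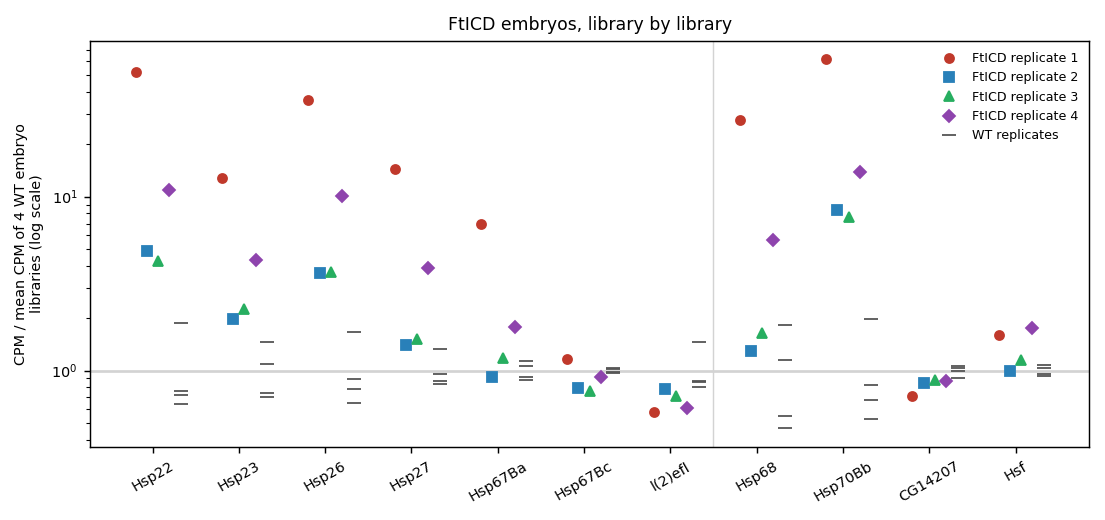
CPM of each embryo library divided by the mean of the 4 wild-type embryo libraries, on a log axis, for the 7 genes and, right of the vertical line, for Hsp68, Hsp70Bb, CG14207 and Hsf. Coloured symbols are the 4 FtICD libraries and grey dashes the wild-type libraries. FtICD replicate 1 and then replicate 4 are highest for Hsp22, Hsp23, Hsp26, Hsp27, Hsp67Ba, Hsp68 and Hsp70Bb, and lowest for l(2)efl.

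Among other stress-inducible genes, Hsp68, Hsp70Bb and the chaperone gene DnaJ-1 were highest in the same 2 FtICD libraries, replicate 1 and then replicate 4. Hsf was highest in these 2 libraries as well, with replicate 4 first, whereas Hsp83 and stv were highest in replicate 2. Hsp68, an inducible HSP70 family member, had 166, 7.82, 9.87 and 33.6 CPM in FtICD embryos and 6.93, 2.79, 11 and 3.30 CPM in wild-type embryos. Its groups overlapped, since wild-type replicate 3 lay above FtICD replicates 2 and 3, and its log2 fold change was 3.25 ± 0.93 (edgeR adjusted p = 0.013). Of the 6 inducible HSP70 genes tested, 6 were called higher, where 26.7% of all genes were, with Hsp70Bb at 4.58 ± 0.77. The near-identical Hsp70 copies share reads, and none of their values above 0 was within 1e-06 of a whole number. In FtICD replicates 1 to 4 Hsp70Bb was 61.7, 8.34, 7.59 and 13.9 times the wild-type mean, and Hsp70Bbb was 44.0, 0.720, 1.28 and 3.49 times it. Hsp70Aa was not tested, and averaged 5.98 CPM in FtICD embryos and 9.31 CPM in wild-type embryos, with 0 CPM in FtICD replicates 2 to 4. Hsf itself rose by 0.49 ± 0.17 (adjusted p = 0.028) and stv by 0.32 ± 0.08 (adjusted p = 0.0053). Hsp83, the fly HSP90, rose by 0.78 ± 0.25 and the mitochondrial chaperonin Hsp60A fell by 0.74 ± 0.10. CG14207, another small heat shock protein gene outside the cluster, fell by 0.24 ± 0.08 (adjusted p = 0.029). Haemocyte markers, with 5 of 7 called higher, summed to 184 to 204 CPM in FtICD embryos and 155 to 164 CPM in wild-type embryos, and the ribosomal RNA share given above differed too. Genes that report sex and dosage compensation, 3 of 4 called higher, summed to 995 to 1103 CPM in FtICD embryos and 602 to 714 CPM in wild-type embryos. Of 7 late embryo cuticle and trachea markers, 1 was called higher and 3 lower. The part of these lists in the results was not tested. With ribosomal RNA and mitochondrial genes removed, no call among the 7 genes was lost.

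In FtICD wing discs the picture differed: Hsp23, Hsp27, Hsp26 and Hsp67Ba fell, while Hsp67Bc rose 6.40-fold. The fitted level of Hsp23 was 0.439 times the wild-type level, and those of Hsp27, Hsp26 and Hsp67Ba were 0.501, 0.400 and 0.735 times it. In this comparison 17.6% of the 9416 genes tested were called, 9.97% lower and 7.67% higher, against 4 and 1 of the 7 genes. Their median log2 fold change was -1.0, and that of all genes tested was 0.01. Summed over the 7 genes, expression was 3102 ± 331 CPM in FtICD discs and 6217 ± 840 CPM in wild-type discs (SD, n = 3 each), most of it from Hsp27.

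Hsp27 had 2291, 2150 and 2702 CPM in FtICD wing discs and 4185, 5377 and 4646 CPM in wild-type discs. The groups were far apart, with a log2 fold change of -1.0 ± 0.13 (edgeR adjusted p = 0.0034). Hsp23 had 350.3, 233 and 289 CPM in FtICD discs and 621, 679.6 and 681 CPM in wild-type discs, again without overlap, and its log2 fold change was -1.19 ± 0.15 (edgeR adjusted p = 0.0031). Hsp26 had 187, 211 and 237 CPM in FtICD discs and 354, 713 and 513 CPM in wild-type discs. Every FtICD library was below every wild-type library, and the log2 fold change was -1.32 ± 0.25 (edgeR adjusted p = 0.013), with the call lost without FtICD replicate 2 (adjusted p = 0.061).

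Hsp67Ba had 217, 184 and 209 CPM in FtICD wing discs and 244, 298 and 287 CPM in wild-type discs, which did not overlap but lay close. Its log2 fold change of -0.44 ± 0.11 (edgeR adjusted p = 0.03) lost its call when FtICD replicate 2 or 3, or wild-type replicate 2 or 3, was left out (adjusted p up to 0.11). Hsp22 had 3.18, 6.83 and 4.52 CPM in FtICD discs and 6.10, 20.1 and 13.3 CPM in wild-type discs. FtICD replicate 2 lay above wild-type replicate 1, and the log2 fold change of -1.45 ± 0.47 missed the edgeR threshold (adjusted p = 0.076). It passed in DESeq2 (adjusted p = 0.0038) and without wild-type replicate 1 (-1.79, adjusted p = 0.026). CG4456, which shares its exons, rose by 4.19 ± 0.79 (edgeR adjusted p = 0.014). With the counts of both genes summed, the log2 fold change was -1.04 ± 0.43 (edgeR adjusted p = 0.14). l(2)efl was low in both genotypes, at 2.75, 1.53 and 3.72 CPM in FtICD discs and 4.41, 2.62 and 4.77 CPM in wild-type discs, with a log2 fold change of -0.56 ± 0.37 (edgeR adjusted p = 0.34).

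Hsp67Bc, the partner of starvin, had 7.33, 7.69 and 7.93 CPM in FtICD wing discs and 0.776, 1.13 and 1.63 CPM in wild-type discs. The FtICD libraries were close together and all above the wild-type libraries, with a log2 fold change of 2.68 ± 0.29 (edgeR adjusted p = 0.0017). The level reached, 7.75 ± 0.309 CPM per kilobase in FtICD wing discs (SD, n = 3), was still far below the 147 CPM per kilobase of wild-type eye-brain complexes in the same table. Neuronal and eye-brain markers summed to 35.2 to 46.9 CPM in FtICD discs and 38.5 to 58.2 CPM in wild-type discs, with 1 of 8 tested called higher and 2 lower. Syt1 was higher (2.18 ± 0.35, edgeR adjusted p = 0.0076), Snap25 (-1.26 ± 0.25) and sens (-1.29 ± 0.29) were lower, and nSyb was at 0 in FtICD discs. The part of these markers in the Hsp67Bc value was not tested. CG4456, the neighbour of Hsp67Bc, had 1.68, 1.36 and 1.87 CPM in FtICD discs and 0, 0.226 and 0.0556 CPM in wild-type discs. stv differed by 0.28 ± 0.25 (edgeR adjusted p = 0.49).

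The lower values in FtICD wing discs went with lower ecdysone response genes. Of 16 such genes tested, 9 were called lower and 1 higher, among them ImpE1 (-2.26 ± 0.20) and Eip78C (-2.24 ± 0.20), and their summed level was 1616 to 2221 CPM in FtICD discs and 6557 to 8604 CPM in wild-type discs. Of 7 inducible HSP70 genes, 1 was called, Hsp70Bb at 3.13 ± 0.68 and higher (edgeR adjusted p = 0.021), and the median log2 fold change of the 7 was -1.71, with 5 at an unadjusted p under 0.05. Hsp70Aa had -4.13 ± 1.37, Hsp70Bbb -4.46 ± 1.46, Hsp70Bc -2.71 ± 1.13, Hsp70Ab -1.71 ± 0.85 and Hsp70Ba 2.65 ± 1.06 (edgeR adjusted p between 0.08 and 0.21), again among copies that share reads. Hsp68 had a log2 fold change of -1.03 ± 0.67 (edgeR adjusted p = 0.34). Fat body markers, 2 of 8 called higher, summed to 88.7 to 1130 CPM in FtICD discs and 39.9 to 110.3 CPM in wild-type discs. The part of these lists in the values of the 7 genes was not tested. When all 19 libraries shared one estimate of spread, none of the 4 lower calls remained (adjusted p = 0.12 for Hsp23, 0.21 for Hsp26, 0.3 for Hsp27 and 0.52 for Hsp67Ba).

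FtICD eye-brain complexes showed no called change in any of the 7 genes. By edgeR 0 of 7 had an adjusted p under 0.05, 0 of 7 had an unadjusted p under 0.05, and DESeq2 called 0, in a comparison that called 4.22% of 10841 genes, 3.15% higher and 1.08% lower. Hsp27 had 2191, 2591 and 1799 CPM in FtICD complexes and 2254 and 2945 CPM in wild-type complexes, and Hsp26 had 246, 387 and 148 CPM in FtICD complexes and 172 and 285 CPM in wild-type complexes. The genotypes overlapped for both. The 95% interval of the log2 fold change was narrow for Hsp23 (-0.39 to 0.35) and Hsp67Ba (-0.17 to 0.56). It was wide for Hsp22 (-1.20 to 1.59), Hsp26 (-0.92 to 1.29) and Hsp67Bc (-1.14 to 0.60), so a 2-fold change in at least 1 direction lies within each. The embryo values of Hsp22 (4.24) and Hsp26 (3.80) lie outside the interval of the same gene, while that of Hsp67Bc (-0.10) lies within it. The interval for Hsp27 ran from -0.75 to 0.25 and that for l(2)efl from -0.87 to 0.96. Hsp23 had 432, 434 and 336 CPM in FtICD complexes and 424 and 386 CPM in wild-type complexes, and leaving out FtICD replicate 3, the library that stands apart, gave no call among the 7 genes either.

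In ft null eye-brain complexes Hsp67Bc, Hsp23, Hsp67Ba and Hsp27 fell, to between 0.347 and 0.657 times the fitted wild-type level. Hsp22 and Hsp26 had higher means but did not pass the test. This comparison called 44.5% of 9978 genes, 21% lower and 23.5% higher, against 4 and 0 of the 7 genes, with a median log2 fold change of -0.61 over the 7 genes and 0.00 over all genes tested. In sum the 7 genes gave 2902 ± 331 CPM in ft null complexes and 4331 ± 473 CPM in wild-type complexes (SD, n = 3 each).

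Hsp67Bc had 19.3, 22.7 and 26.8 CPM in ft null complexes and 57.2, 88.3 and 51.7 CPM in wild-type complexes, without overlap, and its log2 fold change was -1.53 ± 0.22 (edgeR adjusted p = 0.0013). Its partner stv moved the other way, with 144, 108 and 156 CPM in ft null complexes and 60.02, 57.3 and 50.6 CPM in wild-type complexes, a log2 fold change of 1.27 ± 0.14 (edgeR adjusted p = 0.00041). CG14207 fell by 0.63 ± 0.05 (adjusted p = 0.00016).

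Hsp67Ba was the tightest of the set, with 188, 182 and 185 CPM in ft null complexes and 312, 304 and 307 CPM in wild-type complexes. The spread within each genotype was a small part of the gap, and the log2 fold change was -0.74 ± 0.05 (edgeR adjusted p = 5.6e-05). Hsp23 had 1009, 891 and 1043 CPM in ft null complexes and 1645, 2039 and 1593 CPM in wild-type complexes. All ft null libraries were lower, by a log2 fold change of -0.85 ± 0.12 (edgeR adjusted p = 0.0011). Hsp27 had 1240.4, 1262 and 1354 CPM in ft null complexes and 1865, 2171 and 1813 CPM in wild-type complexes, likewise without overlap, with a log2 fold change of -0.61 ± 0.09 (edgeR adjusted p = 0.0014). These 4 calls held in each of 6 fits with 1 library left out (adjusted p up to 0.009).

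Hsp22 had 24.0, 12.6 and 64.3 CPM in ft null complexes and 25.1, 9.19 and 7.88 CPM in wild-type complexes. Wild-type replicate 1 lay above 2 of the ft null libraries, and the log2 fold change was 1.26 ± 0.64 (edgeR adjusted p = 0.15). Hsp26 had 373, 225 and 579 CPM in ft null complexes and 299.9, 239 and 157 CPM in wild-type complexes, with overlap and a log2 fold change of 0.75 ± 0.35 (edgeR adjusted p = 0.11). It was called higher without ft null replicate 2 (1.04, adjusted p = 0.029). Within each genotype, though not across them, the library order of Hsp22 and Hsp26 was that of Hsp68. Hsp68 had 140.5, 63.9 and 283 CPM in ft null complexes and 66.97, 17.4 and 16.2 CPM in wild-type complexes, with a log2 fold change of 2.28 ± 0.68 (edgeR adjusted p = 0.028). l(2)efl had 2.63, 2.32 and 2.0 CPM in ft null complexes and 3.35, 3.80 and 1.94 CPM in wild-type complexes (edgeR adjusted p = 0.31).

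The cell type markers differed between these genotypes as well. Neuronal and eye-brain markers, 10 of 11 called lower and 1 higher, summed to 1399 to 1408 CPM in ft null complexes and 1966 to 2076 CPM in wild-type complexes. Haemocyte markers, 7 of 7 called higher, summed to 401 to 509 CPM in ft null complexes and 136 to 155 CPM in wild-type complexes. Ecdysone response genes, 8 of 17 called lower and 2 higher, summed to 4365 to 4702 CPM in ft null complexes and 4402 to 6370 CPM in wild-type complexes. Salivary gland markers, 6 of 7 called lower, summed to 3.51 to 11.8 CPM in ft null complexes and 26.6 to 67.1 CPM in wild-type complexes. Their part in the levels of the 7 genes was not tested.

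The wild-type complexes of the ft null table and those of the FtICD table were not compared by a test, since the tables were scaled separately and their libraries were read on different sequencers. Hsp23 averaged 1759 CPM in the ft null table's wild type and 405 CPM in the FtICD table's wild type, a ratio of 4.34, while Hsp67Bc averaged 65.7 and 145 CPM, a ratio of 0.452. For Hsp26 the ratio was 1.01, for Hsp67Ba 0.935 and for Hsp27 0.750. In the ft null table's wild type, Hsp23 led the order per length, at 1990 ± 276 CPM per kilobase, above Hsp27 at 1195 ± 119 (SD, n = 3).

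Whether the response to FtICD differed between tissues was tested as an interaction over the 19 libraries. The wing disc response lay below the embryo response by a log2 difference of -5.63 ± 1.13 for Hsp22, -5.07 ± 0.94 for Hsp26, -3.61 ± 0.68 for Hsp23, -3.40 ± 0.81 for Hsp27 and -1.89 ± 0.63 for Hsp67Ba, and above it by 2.80 ± 0.36 for Hsp67Bc (edgeR adjusted p of 0.035 or less for each). That is 5 of 7 lower and 1 higher, where 27.7% of 12680 genes were called, 13% lower and 14.7% higher. The Hsp67Ba call was lost in 9 of 19 fits with 1 library left out (adjusted p up to 0.066), and without FtICD embryo replicate 1 its difference was -0.81. Without that embryo library the differences were -4.20 for Hsp22, -3.87 for Hsp26, -2.70 for Hsp23 and -2.18 for Hsp27, all still called.

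The eye-brain response lay below the embryo response for 4 of 7 genes, where 28.2% of all genes were called and 12.4% were called lower. The log2 differences were -4.0 ± 1.13 for Hsp22, -3.58 ± 0.95 for Hsp26, -2.68 ± 0.84 for Hsp27 and -2.47 ± 0.70 for Hsp23 (edgeR adjusted p between 0.011 and 0.026). Without FtICD embryo replicate 1 they were -2.57, -2.38, -1.46 and -1.56. Leaving out wild-type eye-brain replicate 2, which leaves 1 library in that group with its spread assumed like that of the others, took away the calls of Hsp22, Hsp26 and Hsp27 (adjusted p = 0.064, 0.059 and 0.097). Hsp67Bc (-0.15 ± 0.34) and l(2)efl (0.58 ± 0.45) did not pass. The embryo libraries were read on another sequencer than the wing disc and eye-brain libraries of both genotypes.

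Within groups, some members followed Hsp68 from library to library. The deviation of log2 CPM from the group mean was correlated with that of Hsp68 over all 25 libraries, in 7 relations with Benjamini-Hochberg adjustment and 100000 permutations within groups. Hsp22 had Pearson's r = 0.95 and Spearman's rho = 0.95 (permutation p = 1e-05 for each, the smallest they can give; adjusted 3.5e-05 and 7e-05), and Hsp26 had r = 0.90 and rho = 0.85 (permutation p = 1e-05 and 4e-05; adjusted 3.5e-05 and 0.00014). Without the 2 libraries farthest from the median of Hsp68, FtICD embryo replicates 1 and 2, r was 0.93 for Hsp22 and 0.82 for Hsp26 (permutation p = 1e-05 and 7e-05).

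**Figure D5:**
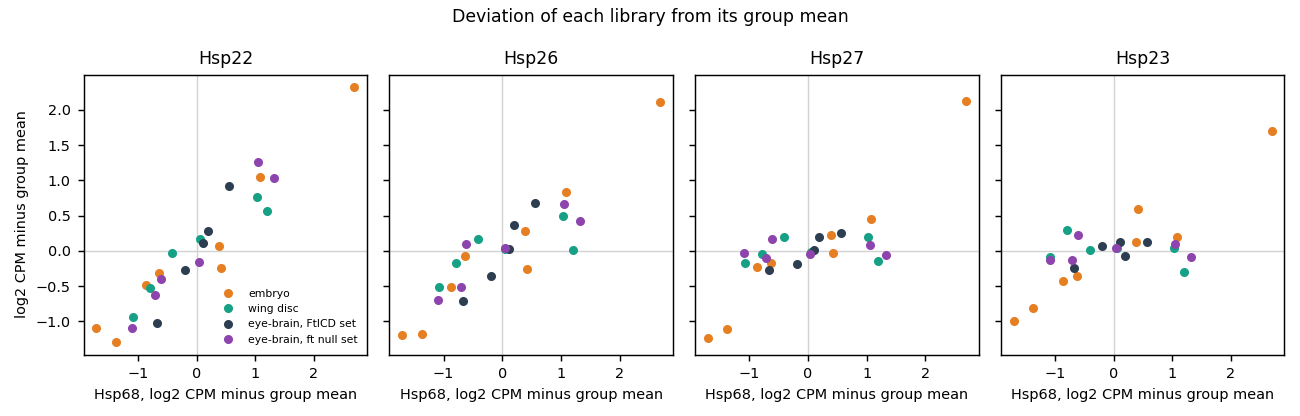
Deviation of each of 25 libraries from its group mean, in log2 CPM, for Hsp22, Hsp26, Hsp27 and Hsp23 on the vertical axes against Hsp68 on the horizontal axes, coloured by tissue and table. Points of all tissues rise together for Hsp22 (r = 0.95) and Hsp26 (r = 0.90), while for Hsp27 and Hsp23 the wing disc and ft null set points lie near 0 on the vertical axis.

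In the sets of at least 6 libraries, which leave out the 5 eye-brain libraries of the FtICD table, the link held for Hsp22, with r = 0.97 over 8 embryo, 0.95 over 6 wing disc and 0.98 over the 6 libraries of the ft null table, and for Hsp26, with 0.97, 0.72 and 0.89. Hsp27 had r = 0.76 and rho = 0.65 overall (permutation p = 0.0023 and 0.0054; adjusted 0.0053 and 0.013), but r = 0.97, 0.23 and 0.00 in the same sets. Hsp23 had r = 0.70 and rho = 0.54 (permutation p = 0.015 and 0.035; adjusted 0.026 and 0.06), with 0.97, -0.49 and 0.13 by set, and Hsp67Ba had r = 0.69 and rho = 0.44 (permutation p = 0.02 and 0.057; adjusted 0.028 and 0.067), with 0.88, 0.07 and 0.65. Without those 2 libraries r was 0.55 for Hsp27 (permutation p = 0.014), 0.41 for Hsp23 (permutation p = 0.12) and 0.35 for Hsp67Ba (permutation p = 0.14), so the relations of Hsp23 and Hsp67Ba rest on them. Hsp67Bc had r = 0.41 and rho = 0.42 (permutation p = 0.056 for each; adjusted 0.066 and 0.067), and l(2)efl had r = -0.36 and rho = -0.32 (permutation p = 0.081 and 0.16; adjusted 0.081 and 0.16). Both genes of each relation were measured in the same libraries and share their depth and scaling.

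The genes most like the mean of the 7 were named by Pearson's r of log2 CPM among 9006 genes, as a description. Over the 19 libraries of the FtICD table these were Utx (0.943), Sox102F (0.940) and Atg7 (0.939), and the libraries differ there mainly by tissue. Over the within-group deviations of the 8 embryo libraries, Hsp68 came first at 0.978, followed by CG13698 (0.972), Hsp70Ba (0.964), Rad23 (0.962), which encodes a carrier of ubiquitinated proteins, and GstD2 (0.960), a glutathione S-transferase. Hsp70Ba averaged 24.9 CPM in FtICD embryos and 0 CPM in wild-type embryos, so its r rests on the FtICD embryos. FtICD replicate 1 deviated most, by 2.69 for Hsp68 and 2.32 for Hsp22, and the ranking was not repeated without it.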

How the data were processed

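Gene tables of estimated counts, not whole numbers throughout, were deposited by the authors, 1 for the 19 libraries of the FtICD experiment and 1 for the 6 libraries of the ft null experiment. Per the labels, cDNA was made from 10 ng of total RNA with the SMARTer Ultra Low kit, and 150-base paired reads came from a NovaSeq X Plus (embryos, ft null table) or a NovaSeq 6000 (larval tissues of the FtICD table). FastQC 0.10, Trimmomatic 0.33, Salmon 1.80, edgeR and dm6 are named in the submitters' processing notes.

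Counts were rounded to whole numbers. Genes passed filterByExpr (minimum count 10), were scaled by TMM and tested with edgeR's quasi-likelihood F test (edgeR 4.0.16, R 4.3.3; two-sided), with Benjamini-Hochberg adjustment over all genes tested and a threshold of 0.05. Each genotype comparison used its own libraries. Interactions used all 19, and tissue levels the 9 wild-type libraries. The scripts were tested on simulated counts. CPM values use 1 TMM scale per table. Gene positions and exon lengths (the union of annotated exons) come from the BDGP6 annotation. All 7 genes, and every gene of the lists of other small heat shock protein, inducible HSP70 and stress chaperone genes and heat shock regulators, were eligible for naming. The 7 genes and all lists were chosen with earlier results of these data known. Total counts of 15016561 to 54256669 per library and 2 to 4 libraries per group limit the precision. Alternatives were DESeq2 (1.42.0), its size factors, no filter, removal of ribosomal and mitochondrial genes, a replicate block, the 19-library fit, leaving out each library, and, added after seeing the data, summing the counts of overlapping genes. No sequences are printed.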

Additional observations from a re-analysis of the deposited data

Results flagged for a closer look

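In groups of 4 embryo libraries, 1 library lay far from the other 3 in CPM for several genes, with 59 groups looked at. Normally distributed values would give such a gap by chance in about 1 of 20 groups. CPM values that differ by large folds are skewed, so that rate does not carry over to them. The rule was not applied to log2 CPM, and the libraries below are listed as a description. FtICD replicate 1 did so for Hsp22 (284 CPM), Hsp67Ba (5.79 CPM) and Hsp68 (166 CPM), and low for CG14207 (385 CPM). The same library stood out in the Hsp70 copies, which share reads: Hsp70Aa had 23.9, Hsp70Ab 1080, Hsp70Ba 85.4, Hsp70Bb 818, Hsp70Bbb 440 and Hsp70Bc 130 CPM there. Wild-type replicate 3 stood above the others for Hsp22 (10.2 CPM) and Hsp70Bbb (28.9 CPM). Wild-type replicate 1 did so for l(2)efl (60.6 CPM) and ft (35.5 CPM).

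The response to FtICD differed between tissues by the interaction test. The wing disc response minus the embryo response was -5.63 for Hsp22, -3.61 for Hsp23, -5.07 for Hsp26, -3.40 for Hsp27, -1.89 for Hsp67Ba and 2.80 for Hsp67Bc on the log2 scale. The eye-brain response minus the embryo response was -4.0 for Hsp22, -2.47 for Hsp23, -3.58 for Hsp26 and -2.68 for Hsp27.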

How the results depend on the processing

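Of 343 log2 values of the 7 genes recomputed under settings other than leaving out a library, 319 kept their direction and side of the threshold. With all 19 libraries in 1 fit, the counts of members called lower were 0 in embryos and 0 in wing discs. The FtICD eye-brain comparison called 1768 genes in DESeq2 and 1725 in the 19-library fit, against 458. With DESeq2's size factors 1 member was called higher in eye-brain over wing disc, and Hsp67Bc stood at -0.01 in eye-brain over embryo. With ribosomal and mitochondrial genes removed, the wing disc minus embryo difference of l(2)efl was -0.01. The cause of these shifts was not tested. Summing overlapping genes, added after seeing the data, moved 1 call, that of Hsp67Ba in embryos.

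Correlations over genes between the deviations of same-numbered mutant and wild-type libraries ran from -0.208 (ft null replicate 2) to 0.231 (FtICD eye-brain replicate 2). Not every library correlated best with its own number. The labels do not say what equal numbers share, and with 2 to 4 libraries per group these correlations cannot settle it. With a replicate block, FtICD eye-brain complexes gave 1284 called genes and 1 member called higher (Hsp26, 0.47, adjusted p = 0.026), Hsp23 at 0.09 and l(2)efl at -0.22. In FtICD wing discs the block took away the call of Hsp67Ba (-0.44, adjusted p = 0.1) and gave one to Hsp22 (-1.36, adjusted p = 0.013). Under the block the eye-brain minus embryo difference was called lower for 2 members, without Hsp26 (-2.67, adjusted p = 0.052) and Hsp27 (-1.85, adjusted p = 0.12), with Hsp67Bc at 0.09, and l(2)efl stood at -0.05 in wing disc minus embryo.

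With 1 library left out, 570 of 630 log2 values of the 7 genes were unchanged in direction and call. Members called lower ranged from 0 to 1 in embryos, from 2 to 5 in wing discs, from 1 to 4 in eye-brain minus embryo and from 1 to 3 in wild-type eye-brain over wing disc, where 1 to 2 were called higher; in ft null complexes 0 to 1 were called higher. Genes called ranged from 872 to 1561 in wing discs, 8 to 865 in FtICD eye-brain complexes and 1931 to 3713 in eye-brain minus embryo. Log2 values changed sign in FtICD eye-brain complexes for Hsp22 (-0.36 to 0.56), Hsp23 (-0.09 to 0.09), Hsp26 (-0.22 to 0.58), Hsp67Bc (-0.59 to 0.06) and l(2)efl (-0.20 to 0.28). They also did for l(2)efl in wing disc minus embryo (-0.30 to 0.28) and wild-type eye-brain over wing disc (-0.38 to 0.13), and for Hsp67Bc in eye-brain minus embryo (-0.49 to 0.18) and wild-type eye-brain over embryo (-0.14 to 0.45). Members under 5 CPM, such as Hsp67Ba in embryos and l(2)efl in larval tissues, are limited by depth.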

Other observations

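CG7409, another small heat shock protein gene, averaged 28.5 CPM in FtICD embryos and 21.5 CPM in wild-type embryos, and 0.0145 CPM in FtICD wing discs and 0.184 CPM in wild-type wing discs, with no count in FtICD eye-brain complexes. CG4461, which lies between Hsp22 and Hsp26 on 3L, gave a total of 6 counts over the 4 FtICD embryo libraries and 0 over the 4 wild-type embryo libraries. CG14207 differed between wild-type tissues like l(2)efl in direction, by -2.53 ± 0.09 for wing disc over embryo and -2.04 ± 0.10 for eye-brain over embryo (edgeR adjusted p = 1.1e-09 and 2.8e-08), and stv by -2.08 ± 0.10 and -2.13 ± 0.12.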
